A study of Mus musculus with 24 samples.

Results

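The genes examined here encode the receptors for glutamate, GABA and glycine in mouse testis. They were chosen by symbol, as every listed gene whose name begins with *Gria*, *Grik*, *Grid*, *Grin*, *Grm*, *Gabr*, *Gabbr*, *Glra* or *Glrb*, with antisense transcripts and 1 NMDA receptor subunit gene outside the set. This gave 52 of the 24456 listed genes: 4 AMPA, 5 kainate, 2 delta and 6 NMDA receptor genes, 8 metabotropic glutamate receptor genes, 16 GABA-A, 3 GABA-A rho, 2 GABA-B and 5 glycine receptor genes. The remaining symbol encodes a scaffold protein and not a receptor. Whole testes came from WT mice and from mice homozygous for an *Atad2* knockout (KO) allele at 20, 22, 24 and 26 days postpartum, when the first wave of germ cells passes from meiosis to spermatids. There were 4 WT and 4 KO libraries at days 20 and 22, and 2 of each at days 24 and 26. The KO allele fuses *Atad2* with a *lacZ* reporter and lacks an exon, which had been removed by a cross to mice with Cre under a *CMV* promoter, so the gene was altered in every tissue and not in germ cells alone. Libraries are named by genotype, day and number, as in KO_d22_1.

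Ionotropic glutamate receptors (AMPA, kainate, delta and NMDA) are tetrameric cation channels, and kainate receptors combine the subunits GluK1 to GluK5 encoded by *Grik1* to *Grik5*. Metabotropic glutamate receptors and GABA-B receptors are coupled to G proteins. GABA-A and glycine receptors are pentameric chloride channels. All are best known from synapses in the nervous system, and messages of several of them have also been found in testis and sperm.

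Of the 52 genes, 35 had enough counts to be tested. The 17 that did not included 6 GABA-A genes, the 3 rho genes, the 4 glycine receptor alpha genes, *Grin2a* and *Grm2*. Among the 17 the highest count in any library was 9, and *Gabra6* had no count in any of the 24 libraries. The levels were low on the whole, and assigned counts of 10709667 to 19491935 per library were the depth behind them. Genes such as *Grin1*, the subunit that every NMDA receptor needs, with 4 to 18 counts per library, could be compared coarsely at best.

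The kainate subunit gene *Grik5* was the most abundant receptor message. Levels are given as CPM, counts scaled by TMM to a common library size, and for comparisons between genes they were divided by the exon length in kb. On this scale *Grik5* had a mean level of 12 CPM per kb over the 24 libraries (SD 2.32) and made up 42.3% of the summed level of all 52 genes. It stood above the next gene in 24 of 24 libraries. *Grin2d*, an NMDA receptor subunit gene, followed with a level of 3.12 CPM per kb (SD 1.31), and *Gabbr1*, which encodes the GABA-binding subunit of the GABA-B receptor, with 2.25 (SD 0.380). The AMPA receptor genes *Gria4* and *Gria3* had levels of 1.5 (SD 0.259) and 1.25 CPM per kb (SD 0.359). Among the 10 genes of highest level, *Grm7*, *Gabra5*, *Gabra3* and *Gabra4* lay between 0.647 and 0.579 CPM per kb.

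Some neighbours in this order did not separate. *Grin2d* was above *Gabbr1* in 19 of 24 libraries, and *Gabbr1* was above *Gria4* in 21. The exceptions for *Grin2d* were KO_d20_3 and all 4 WT libraries of day 20, where the mean level was 1.32 CPM per kb for *Grin2d* and 2.22 for *Gabbr1*. *Gria4* was above *Gria3* in 16 libraries, within the spread of each gene. From *Grm7* to *Gabra4*, each gene was above the next in 10 to 13 of 24 libraries, so no order can be read there. The obligatory partner of *Grin2d*, *Grin1*, had a level of only 0.0796 CPM per kb (SD 0.0223); it was named after its values were seen.

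**Figure D1:**
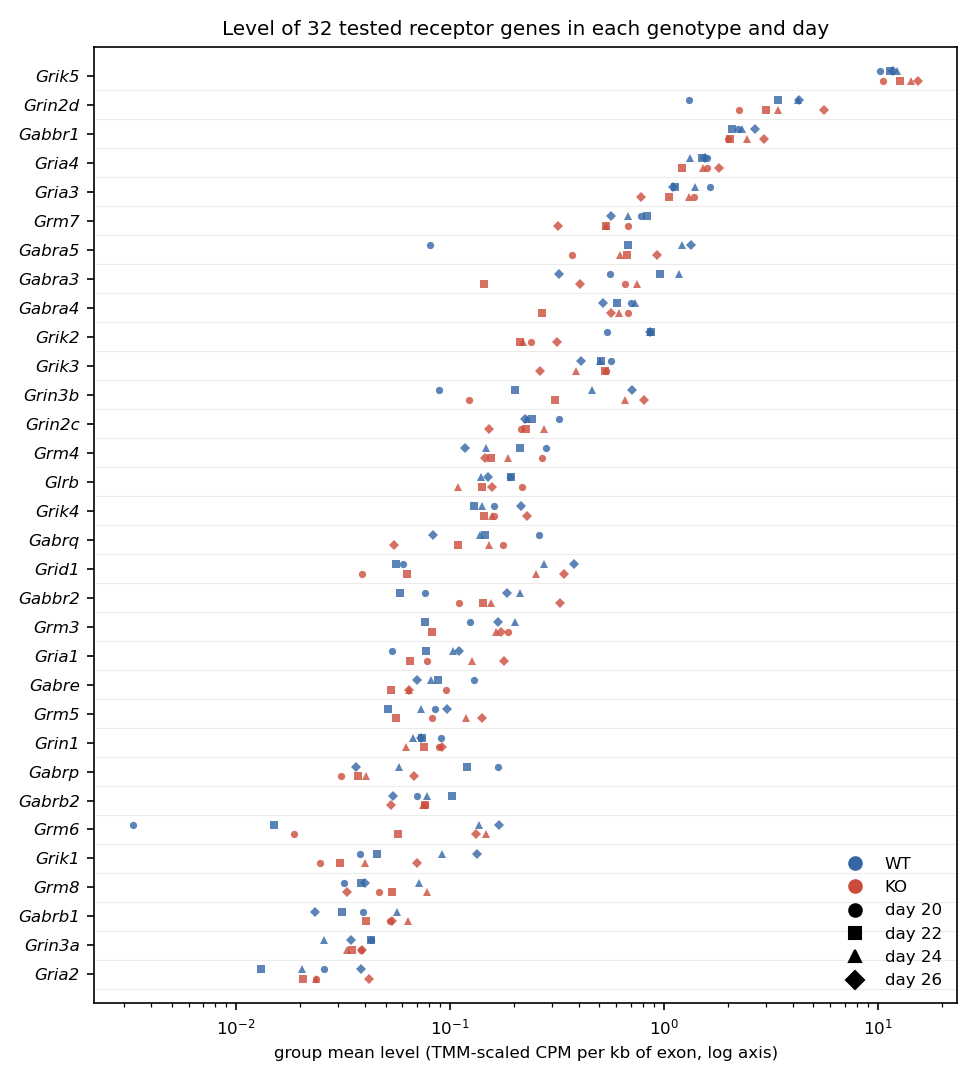
Mean level of 32 of the 35 tested receptor genes in each genotype and day, as TMM-scaled CPM per kb of exon on a log axis. Colour marks genotype and the symbol marks the day; *Grik5* lies to the right of all other genes in every group, while in WT *Grm6* and *Gabra5* have their day 20 points to the left of their later ones.

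Values of the libraries that bear on these genes are given first. WT_d20_2 stood apart from its group, with a chi-square per degree of freedom of 88.5 to 122 against the other WT libraries of day 20, beside 4.87 to 49.95 for all other pairs within groups. The targeted gene followed the labels, with *Atad2* at 30.8 to 53.0 CPM in KO libraries and 76.1 to 171 CPM in WT. The KO testes held more spermatid message at day 20: the 8 round spermatid markers were all called higher, their summed level was 37.3 to 145 CPM in KO and 10.0 to 33.6 CPM in WT, and 6 were called higher over the mean of the days. A stage score (round spermatid minus pachytene markers, mean log2 CPM) was -7.26 to -4.51 in KO and -8.13 to -7.06 in WT. The 6 elongating spermatid markers summed to 41.6 to 349 CPM in KO and 17.6 to 40.8 CPM in WT at day 22, where 4 were called higher, and all 6 were called higher over the mean of the days. Over that mean 3 of 5 endothelial and 2 of 6 peritubular markers were called lower; at day 22 the peritubular markers summed to 258 to 537 CPM in KO and 514 to 761 CPM in WT. *Crisp1*, an epididymal gene, was at 100 counts or above in 9 of the 24 libraries, which came from both genotypes. Of 8 neuron markers, which summed to 5.51 to 8.46 CPM in KO and 5.89 to 10.9 CPM in WT, 3 passed the filter and none was called in any KO against WT comparison, and *Snap25*, a defining neuron gene, had at most 2 counts in a library. None of the 6 Schwann cell and glia markers was called either. In whole testis, fewer cells of a type and less RNA per cell cannot be told apart.

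Few receptor genes were called between KO and WT. At day 20, 3 of the 35 tested genes were called (2 higher, 1 lower) in edgeR's quasi-likelihood test at an adjusted p under 0.05, beside 3.34% of all genes tested (2.98% higher, 0.361% lower). At day 22, 2 were called, both lower (all genes, 2.51%, with 1.26% higher and 1.25% lower). At day 24, 1 was called, lower (all genes, 0.0874%, with 0.0175% higher and 0.0699% lower). At day 26 none was called in edgeR (all genes, 0.0466%, all of them lower), with 2 at an unadjusted p under 0.05 and 1 called by DESeq2. Over the mean of the 4 daily differences 1 was called, lower (all genes, 7.08%, with 3.52% higher and 3.56% lower). With so few calls, these shares describe single genes and not the set. The median log2 fold change of the 35 genes, for the days in order, was 0.02, -0.09, -0.04 and 0.10, beside 0.00, 0.01, -0.01 and -0.04 for all genes tested. At an unadjusted p under 0.05 there were 5, 8, 2 and 2 genes at the 4 days and 5 over the mean. Among all 17170 genes tested these counts were 2141, 2505, 898 and 1979 at the 4 days and 3982 over the mean. The genes described here as called between genotypes are *Grik2*, *Gabra3* and *Gabra5*.

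**Figure D2:**
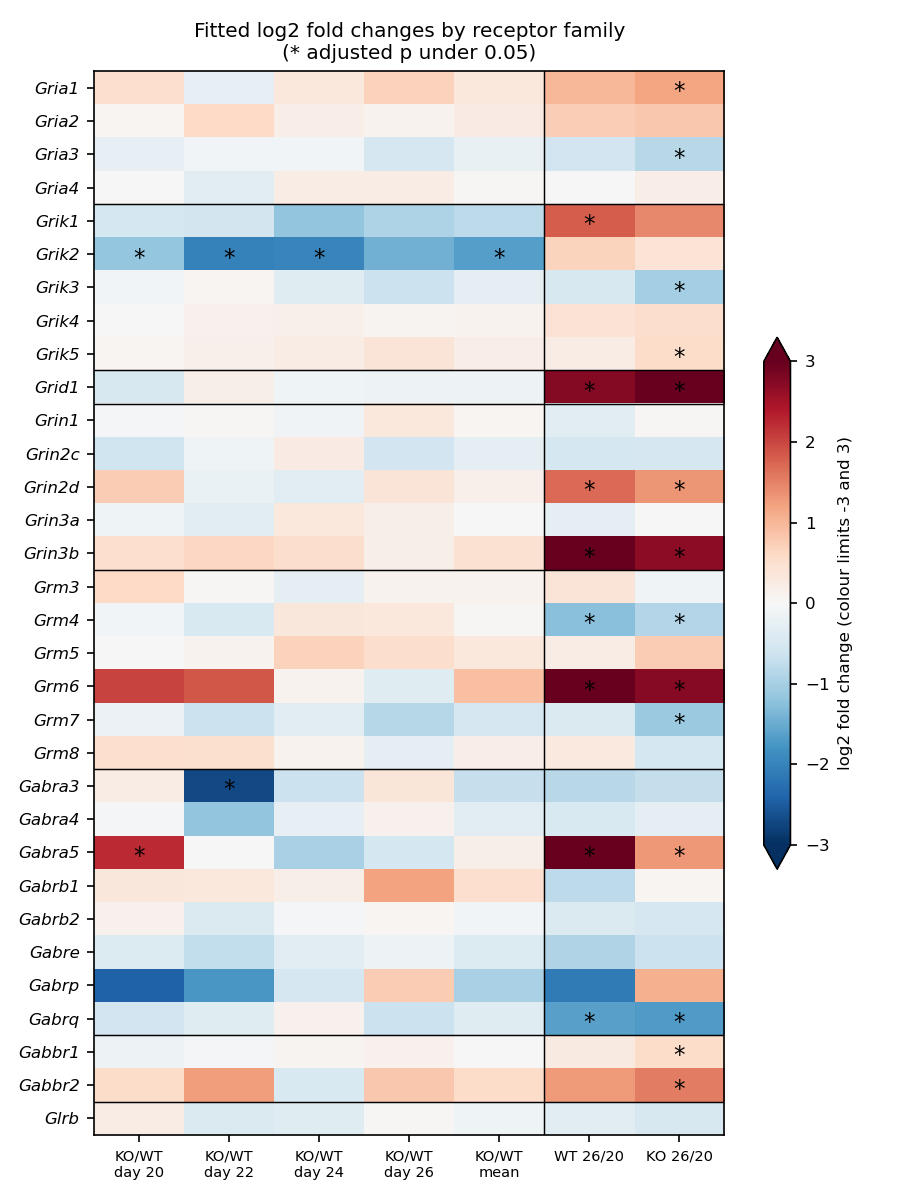
Fitted log2 fold changes of 32 of the 35 tested receptor genes, grouped by family from AMPA at the top to glycine at the bottom, for KO against WT at each day and over the mean of the days, and for day 26 against day 20 in each genotype. Stars mark an adjusted p under 0.05; the row of *Grik2* is blue in all 5 KO against WT columns, and most stars lie in the last columns, which compare days.

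*Grik2* encodes GluK2, a kainate receptor subunit that can form channels by itself, unlike GluK5. The gene lies on the minus strand of chromosome 10 (chr10:49094833-49788766, mm10). At day 20 its level was 7.93, 8.84, 4.97 and 6.98 CPM in the WT libraries and 3.63, 4.97, 1.91 and 2.17 CPM in KO. The highest KO and the lowest WT library therefore met at the same level. At day 22 the WT libraries had 11.8, 11.5, 10.4 and 12.4 CPM and the KO libraries 2.90, 3.01, 3.56 and 1.81 CPM. At day 24 the WT values were 12.5 and 10.5 CPM against 2.97 and 2.88 CPM in KO, and at day 26 they were 12.6 and 10.1 against 4.06 and 4.36 CPM. From day 22 on the groups were far apart, and the values rest on 27 to 76 counts per KO library and 137 to 242 per WT library.

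*Grik2* had lower values in KO on all 4 days and was called at 3 of them in edgeR. The log2 fold change of day 20 was -1.17, with SE 0.247 and an adjusted p of 0.0115. Day 22 gave -2.02 (SE 0.246, adjusted p = 9.04e-05) and day 24 gave -1.97 (SE 0.348, adjusted p = 0.0222). At day 26 the log2 fold change was -1.43 (SE 0.336) with an adjusted p of 0.100. Over the mean of the 4 days it was -1.65 (SE 0.150, adjusted p = 4.64e-07). The joint edgeR test of a difference between the days gave an adjusted p of 0.655. Over the same mean 6 of 8 round and 6 of 6 elongating spermatid markers were called higher. Lower were 3 of 5 endothelial and 2 of 6 peritubular markers. The part of these cells in the *Grik2* values was not tested. The day 20 value without WT_d20_2 was -1.08 (adjusted p = 0.0356). The calls at day 22 and over the mean held without any single library, and at day 22 also without the libraries with *Crisp1* (-2.03, adjusted p = 0.0482). The day 20 call was lost with the stage score as a covariate (-0.71, adjusted p = 0.673), with that day fitted alone (-1.18, 0.155) and without the *Crisp1* libraries (-1.14, 0.710). The day 24 call was lost without the *Crisp1* libraries, which leaves 1 library per genotype, and without KO_d24_1, KO_d24_2, WT_d24_1 or WT_d24_2 (-2.07 to -1.84, adjusted p 0.0852 to 0.489). The day 26 value was called without WT_d20_2 (adjusted p = 0.0462), with that day fitted alone (0.00346) and by DESeq2 (0.0150).

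The promoter of *Grik2* is shown because this message was the one called at more than 1 day. It is the stretch from 250 bases before to 50 after the annotated start in RefSeq (GRCm38.p6, chr10:49788705-49789004, minus strand), 5′ to 3′, with a match to the half-site of the cAMP response element (TGACG, here on the other strand) in capitals at the start:
Grik2: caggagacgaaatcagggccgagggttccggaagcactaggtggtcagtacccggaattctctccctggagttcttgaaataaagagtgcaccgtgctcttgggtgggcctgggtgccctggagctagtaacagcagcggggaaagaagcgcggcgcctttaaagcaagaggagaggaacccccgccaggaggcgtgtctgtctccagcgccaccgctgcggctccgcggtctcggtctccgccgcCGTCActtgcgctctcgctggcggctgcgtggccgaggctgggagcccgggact
The window holds 26 CpG dinucleotides, beside a median of 7 over the 32817 windows of the table and 12 over the 45 windows of receptor genes. On either strand, TGACG was found in 20.8% of all windows and in 13.3% of receptor gene windows, and the full element TGACGTCA, which contains it, in 1.79% and in 0 of 45. TATAAA, the core of the TATA box, was found in 13.6% of all windows and in 11.1% of those of receptor genes.

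None of the other kainate receptor genes was called between KO and WT in edgeR, and their difference from *Grik2* was not tested. *Grik1* had log2 fold changes below 0 on every day, -0.53 to -1.17, on levels of at most 0.932 CPM, and -0.79 over the mean (SE 0.380, adjusted p = 0.214). At day 24 it had 0.276 and 0.261 CPM in KO and 0.620 and 0.611 CPM in WT, and at day 26 it had 0.482 and 0.459 against 0.869 and 0.932 CPM. *Grik3* had 3.66 and 3.33 CPM in KO against 4.65 and 4.41 CPM in WT at day 24, and 2.68 and 2.06 against 3.71 and 3.66 CPM at day 26. In both genes the KO libraries lay below the WT libraries on these days, as did those of 21.4% of all genes tested at day 24 and 31.1% at day 26, so with 2 libraries per group such an order is common. *Grik3* reached -0.64 at day 26 (SE 0.334, adjusted p = 0.480) and was at -0.26 over the mean (SE 0.141, adjusted p = 0.280). For *Grik5*, whose protein needs a partner such as GluK2 to form a channel, the log2 fold change over the mean was 0.20 (SE 0.111, adjusted p = 0.279). Its levels at day 26 were 62.4 and 59.9 CPM in WT and 82.1 and 76.7 CPM in KO. These groups did not overlap, as for 27.8% of all genes tested in that direction, and the log2 difference of 0.38 was called only with that day fitted alone (adjusted p = 0.0251, against 0.594 with all days).

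**Figure D3:**
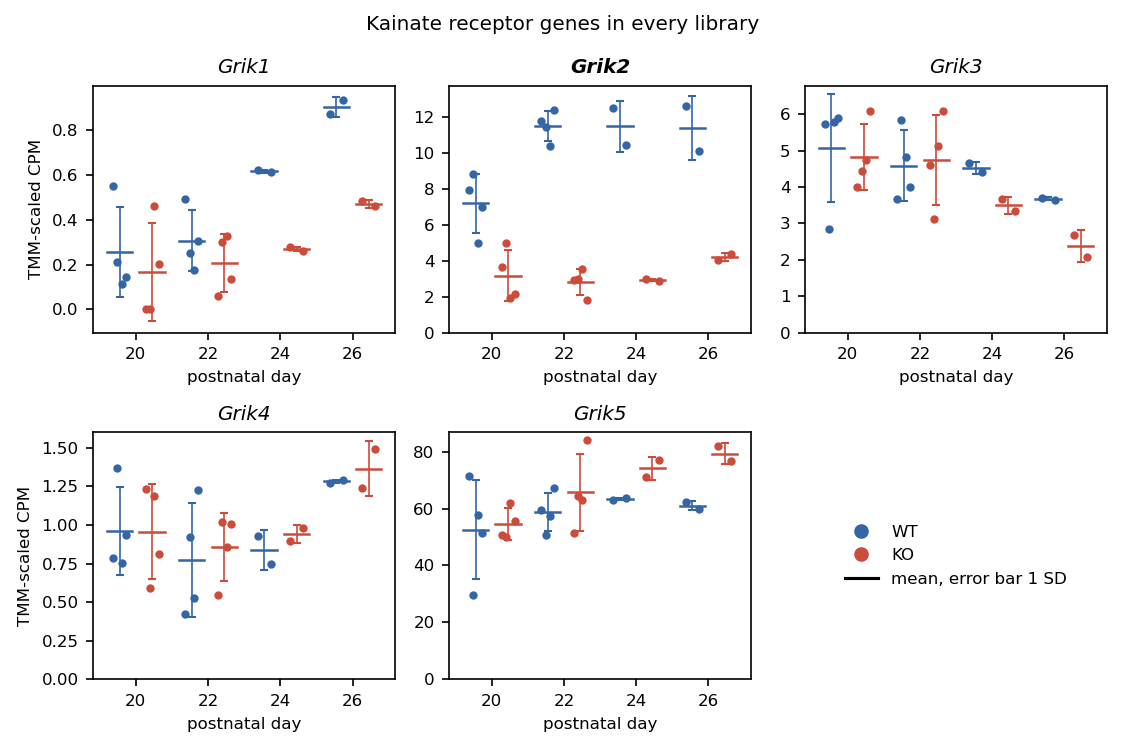
TMM-scaled CPM of the 5 kainate receptor genes in each library by postnatal day, with the group mean and 1 SD. *Grik2* is the panel in which KO libraries lie below WT from day 22 on, between 1.81 and 4.36 CPM against 10.1 to 12.6; each panel has its own scale.

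Among the GABA-A genes the call at day 22 was *Gabra3*, an alpha subunit gene on the X chromosome (chrX:72432681-72656848). The WT libraries had 2.75, 3.59, 2.21 and 6.54 CPM and the KO libraries 1.88, 0.0601, 0.198 and 0.134 CPM. In counts, KO_d22_2, KO_d22_3 and KO_d22_4 had 1, 3 and 2, while KO_d22_1 had 31. This gave a log2 fold change of -2.70 (SE 0.680; adjusted p = 0.0394 in edgeR), and every KO library lay below every WT library, as for 4.45% of all genes tested. On the other days it was 0.22 (SE 0.609), -0.65 (SE 0.820) and 0.36 (SE 0.923), none of them called. Whether day 22 differed from the other days did not pass the joint test. All 35 genes missed it in edgeR, where 0.00582% of all genes were called, and *Gabra5* was called by DESeq2. At an unadjusted p under 0.05 there were 5 of the 35 genes, beside 1556 of all 17170 genes tested in edgeR.

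*Gabra4*, a further alpha subunit gene, on chromosome 5, had its low values in the same libraries. Its levels at day 22 were 3.24, 3.09, 3.61 and 4.81 CPM in WT and 3.87, 0.661, 1.19 and 0.804 CPM in KO, with a log2 fold change of -1.17 (SE 0.399, adjusted p = 0.130). KO_d22_1 was thus within the WT range and the other KO libraries below it. Without KO_d22_1 the log2 fold change was -2.06 for *Gabra4* (adjusted p = 0.00159) and -4.80 for *Gabra3*, and the mean over the days was then called for both (adjusted p = 0.0378 and 0.0204). The *Gabra3* call at day 22 did not survive 13 of the 24 omissions of a single library (adjusted p up to 0.178). These were the omissions of KO_d22_2, KO_d22_3, KO_d22_4, each WT library of day 22, WT_d20_2, KO_d24_1, KO_d24_2, WT_d24_2, KO_d26_1 and KO_d26_2.

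Epididymal message was high in KO_d22_1, the library in which both genes stood apart. KO_d22_1 had 1864 counts of *Crisp1* and the other KO libraries of day 22 had 0. Across the 8 groups of the study, the library with the most *Crisp1* counts also had the highest *Gabra3* level in 7, and the highest *Gabra4* level in 5. The median over the 35 receptor genes was 3 groups, and 8 of them reached 5 or more, with *Gabrb1* and *Gabrb2* at 6. For *Gabra4* the direction was the opposite at day 24 in both genotypes and at day 26 in KO, where the library with *Crisp1* had 3.87, 2.48 and 2.81 CPM and the other one 5.02, 5.04 and 4.06 CPM. This count was chosen after the values were seen. Without the 9 libraries with *Crisp1* the day 22 log2 fold change was -4.50 for *Gabra3* (adjusted p = 0.0125) and -1.81 for *Gabra4* (adjusted p = 0.0901). The 5 epididymal markers summed to 3.95 to 132 CPM in KO and 2.75 to 536 CPM in WT at day 22, with *Lcn8* at 0 in all of these libraries. The summed level of 5 endothelial markers at day 22 was 25.9 to 54.0 CPM in KO and 61.4 to 68.2 CPM in WT, and 1 of them was called lower. The part of epididymal, endothelial, peritubular or spermatid RNA in the values of *Gabra3* and *Gabra4* was not tested.

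**Figure D4:**
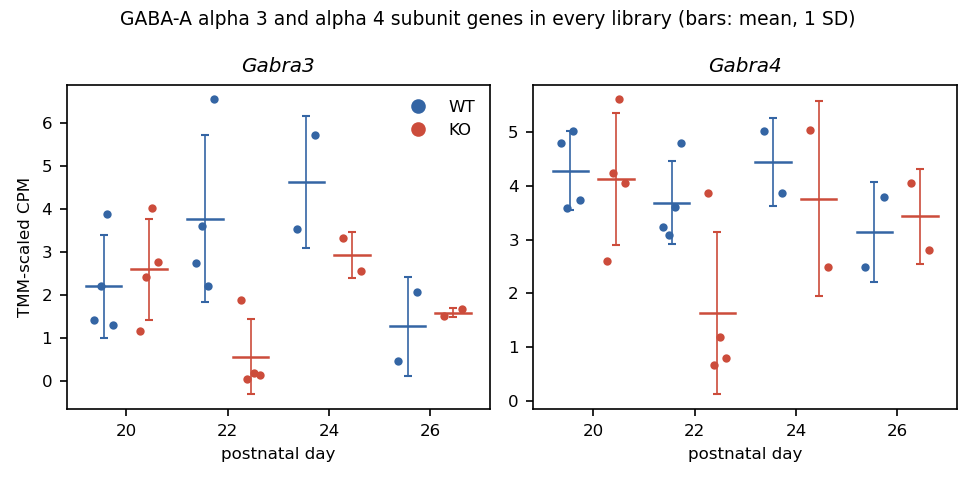
TMM-scaled CPM of *Gabra3* and *Gabra4* in each library by postnatal day, with the group mean and 1 SD. At day 22, KO_d22_1 lies at 1.88 and 3.87 CPM, apart from the other KO libraries at 0.0601 to 0.198 and 0.661 to 1.19 CPM.

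*Gabra5* was higher in KO at day 20. This alpha subunit gene (chr7:57407672-57510059) had 0.236, 0.316, 0.116 and 0.288 CPM in WT, on 2 to 4 counts, and 0.943, 0.261, 1.06 and 2.17 CPM in KO. KO_d20_2 lay within the WT range and the other KO libraries above it. The log2 fold change was 2.24, with SE 0.539 and an adjusted p of 0.0218. The call was lost without KO_d20_3, KO_d20_4, WT_d20_1 or WT_d20_3 (1.68 to 2.57 over all such fits, adjusted p up to 0.129). Without WT_d20_2 it was at 2.36 (adjusted p = 0.0473). The call was also lost with the day fitted alone (adjusted p = 0.199) and without the *Crisp1* libraries (0.725).

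Stage scores of the same libraries are given beside these values. The stage scores of KO_d20_1 to KO_d20_4 were -6.28, -7.26, -5.06 and -4.51, in the same order as their levels of *Gabra5*. With the stage score as a covariate the log2 fold change of *Gabra5* was 0.27 (adjusted p = 0.986). The score averaged -5.78 in KO and -7.78 in WT at day 20, so stage and genotype cannot be told apart there. The part of stage in the *Gabra5* values was not tested. At days 22, 24 and 26 *Gabra5* was not called, with log2 fold changes of -0.01, -0.97 and -0.54. The change of the KO effect on *Gabra5* from day 20 to day 26, a contrast added after the values were seen, was -2.77 (adjusted p = 0.175).

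The other families had no call between genotypes in edgeR. This held for the 4 AMPA, 1 delta, 5 NMDA, 2 GABA-B and 1 glycine receptor genes tested. The AMPA receptor genes *Gria4* and *Gria3* were at 0.03 (SE 0.0962, adjusted p = 0.900) and -0.23 (SE 0.147, adjusted p = 0.376) over the mean of the days. The 4 tested genes of the X chromosome were below 0 over the mean, *Gabra3* at -0.69, *Gabre* at -0.41, *Gabrq* at -0.36 and *Gria3* at -0.23. None was called there, and this grouping was made after the values were seen. On single days the sign was mixed for *Gabra3* (0.22 at day 20, 0.36 at day 26) and *Gabrq* (0.12 at day 24). The share of all genes below 0 was not counted. The 15 tested genes not chosen by the naming rule lay between -0.97 and 0.51 over the mean. *Grin2d* had 12.5, 13.7, 15.4 and 18.3 CPM in KO at day 20 and 10.6, 4.0, 8.84 and 11.6 CPM in WT. All KO libraries lay above all WT libraries, as for 3.03% of all genes tested, with a log2 fold change of 0.76 (SE 0.238, adjusted p = 0.0961; called by DESeq2, adjusted p = 0.0336). Without WT_d20_2 it was 0.52 (adjusted p = 0.153) and after adding the stage score to the fit 0.50 (0.836). *Gabbr2*, the partner of *Gabbr1* that couples to G proteins, was at 1.26 at day 22 (SE 0.476, adjusted p = 0.183), and *Gabbr1* itself at 0.00 over the mean of the days (SE 0.0869, adjusted p = 0.986). *Grm7*, a presynaptic inhibitory receptor gene, was at -0.51 over the mean (SE 0.196, adjusted p = 0.117). *Gabrp*, named after its values were seen, was at -2.42 at day 20 (SE 0.842, adjusted p = 0.158) on levels of at most 1.04 CPM, and was called in that comparison without WT_d22_4 (adjusted p = 0.0354).

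More receptor genes were called between days than between genotypes. Between days 20 and 26 in WT, 10 of the 35 genes (28.6%) were called, 8 higher and 2 lower, beside 42.5% of all genes tested (24.4% higher, 18.1% lower). In KO, 16 (45.7%) were called, 11 higher and 5 lower, beside 52.2% of all genes (27.2% higher, 24.9% lower). The KO count was 9 without KO_d26_1 and 6 without KO_d26_2, and the difference of these shares from those of all genes was not tested. The median log2 fold change of the 35 genes was 0.23 in WT and 0.41 in KO, against -0.04 and -0.07 for all genes. The same day 20 and day 26 libraries also enter the genotype comparisons.

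The rises in WT came from several families. *Gabra5* went from 0.116 to 0.316 CPM at day 20 to 4.52 and 3.44 CPM at day 26, a log2 fold change of 4.08 (SE 0.541, adjusted p = 3.06e-06). *Grin3b*, a glycine-binding NMDA receptor subunit gene, went from 0.157 to 0.421 CPM to 2.55 and 2.15 CPM (3.02, SE 0.455, adjusted p = 1.62e-05). *Grid1*, an orphan delta receptor gene that binds cerebellin proteins, reached 2.95 and 1.58 CPM from 0.116 to 0.632 CPM (2.75, SE 0.537, adjusted p = 0.000300). *Grm6*, best known from bipolar cells of the retina, had 1 count in the 4 WT libraries of day 20 together and 29 in the 2 of day 26, a ratio of scaled levels of 49.6 with a 95% counting interval of 8.23 to 2028. *Grin2d* rose by 1.69 (SE 0.274, adjusted p = 3.79e-05), from 4.0 to 11.6 CPM to 31.6 and 25.5 CPM. For all of these genes the day 26 libraries lay above every day 20 library. They were taken from the genes called higher, and the share of all genes separated in this way was not counted. The stage score rises with day, from -8.13 to -7.06 in WT at day 20 to -2.79 and -2.78 at day 26. With it as a covariate none of the 10 WT calls was left. The log2 changes of *Gabra5*, *Grin3b* and *Grm6* were then -0.22, -0.62 and -2.06. The scores of these days did not overlap, so that fit cannot separate stage from day. Without the *Crisp1* libraries, a fit that leaves 1 WT library at day 26, *Gabrq*, *Grm4* and *Grik1* were among the calls lost. Without WT_d20_2 the changes of *Gabra5*, *Grin3b*, *Grid1*, *Grm6* and *Grin2d* were 4.17, 3.15, 3.07, 4.87 and 1.42, all called.

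The promoters of *Gabra5*, *Grin3b* and *Grm6* are shown as examples of these rising messages, from RefSeq (GRCm38.p6) with the same window, 5′ to 3′ on the gene's strand. They lie at chr7:57510010-57510309 (minus), chr10:79970474-79970773 (plus) and chr11:50850435-50850734 (plus), and capitals mark a match to TATAAA:
Gabra5: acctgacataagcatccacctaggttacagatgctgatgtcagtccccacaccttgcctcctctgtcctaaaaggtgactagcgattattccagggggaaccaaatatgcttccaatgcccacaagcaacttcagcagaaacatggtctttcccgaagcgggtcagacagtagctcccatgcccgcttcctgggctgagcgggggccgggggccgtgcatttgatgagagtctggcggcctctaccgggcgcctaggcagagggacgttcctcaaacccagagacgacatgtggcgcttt
Grin3b: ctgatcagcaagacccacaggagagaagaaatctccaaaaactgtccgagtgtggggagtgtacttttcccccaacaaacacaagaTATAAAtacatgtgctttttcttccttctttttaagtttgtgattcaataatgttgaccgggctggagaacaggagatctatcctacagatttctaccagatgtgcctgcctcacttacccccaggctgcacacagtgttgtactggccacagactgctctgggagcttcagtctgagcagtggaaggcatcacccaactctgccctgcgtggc
Grm6: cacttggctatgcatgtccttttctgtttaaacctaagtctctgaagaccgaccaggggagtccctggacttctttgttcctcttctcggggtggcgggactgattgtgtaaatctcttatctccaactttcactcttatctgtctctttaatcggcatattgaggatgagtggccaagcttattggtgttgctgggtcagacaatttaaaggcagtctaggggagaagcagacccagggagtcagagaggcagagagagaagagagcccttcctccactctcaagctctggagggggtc
The windows hold 13, 3 and 4 CpG dinucleotides, and none holds TGACG on either strand.

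In KO these genes also rose, *Grid1* by 3.07 (SE 0.551), *Grm6* by 2.72 (SE 0.799), *Grin3b* by 2.69 (SE 0.422), *Grin2d* by 1.32 (SE 0.269) and *Gabra5* by 1.31 (SE 0.460). Their adjusted p lay between 3.39e-05 and 0.0219. Most of the KO calls between these days were lost with the stage score as a covariate. That score was -7.26 to -4.51 in KO at day 20 and -3.01 and -2.99 at day 26, so stage and day cannot be separated in KO either. The *Gabra5* rise in KO was lost without KO_d20_1, KO_d20_2, KO_d26_1 or KO_d26_2 (adjusted p up to 0.107). *Gabbr2* and *Gabbr1* rose in KO by 1.55 (SE 0.489, adjusted p = 0.0119) and 0.55 (SE 0.17, adjusted p = 0.0101). *Gabbr2* was lost without KO_d26_1 or KO_d26_2 (adjusted p up to 0.0740), and *Gabbr1* without KO_d26_2 (0.156). *Gria1* and *Grik5* also rose in KO, by 1.19 and 0.54. *Gria1*, named after its values were seen, was lost without KO_d20_1, KO_d20_2, KO_d26_1 or KO_d26_2 (adjusted p up to 0.217), and *Grik5* in 14 of the 24 omissions of a single library, among them KO_d26_1 and KO_d26_2 (adjusted p up to 0.187). In WT the log2 changes of *Gabbr2* and *Gabbr1* were 1.27 and 0.27, not called, and the difference between genotypes in that change was not called for *Gabbr1* (adjusted p = 0.765) or *Gabbr2* (0.951).

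Falls with age were fewer. *Gabrq*, a GABA-A theta subunit gene on the X chromosome, fell by 1.63 in WT on the log2 scale (SE 0.458, adjusted p = 0.00686), from 1.10 to 1.91 CPM to 0.463 and 0.430 CPM, and by 1.70 in KO (SE 0.499, adjusted p = 0.00746). These calls were lost without WT_d26_2 (adjusted p = 0.0596) and without KO_d26_2 (0.137). *Grm4*, an inhibitory metabotropic receptor gene, fell by 1.25 in WT (SE 0.330, adjusted p = 0.00451), from 1.34 to 2.16 CPM to 0.695 and 0.717 CPM. In KO *Grm4*, *Grm7*, *Grik3* and the X-linked AMPA receptor gene *Gria3* fell by 0.87, 1.10, 1.02 and 0.82. All of these KO calls were lost without KO_d26_2. Those of *Grm7* and *Gria3* were also lost without KO_d26_1, KO_d20_3 or KO_d20_4, and that of *Grm4* without KO_d26_1 or KO_d20_1. Their highest adjusted p were 0.131 for *Grm4*, 0.211 for *Grm7*, 0.0994 for *Grik3* and 0.212 for *Gria3*. The log2 changes of these genes in KO stayed between -1.38 and -0.66 over all single omissions. *Grik1* rose in WT by 1.83 (SE 0.693, adjusted p = 0.0384), a call lost without WT_d20_2, WT_d20_3, WT_d20_4, WT_d26_1 or WT_d26_2 (adjusted p up to 0.135). With the stage score as a covariate its change turned negative and was not called.

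**Figure D5:**
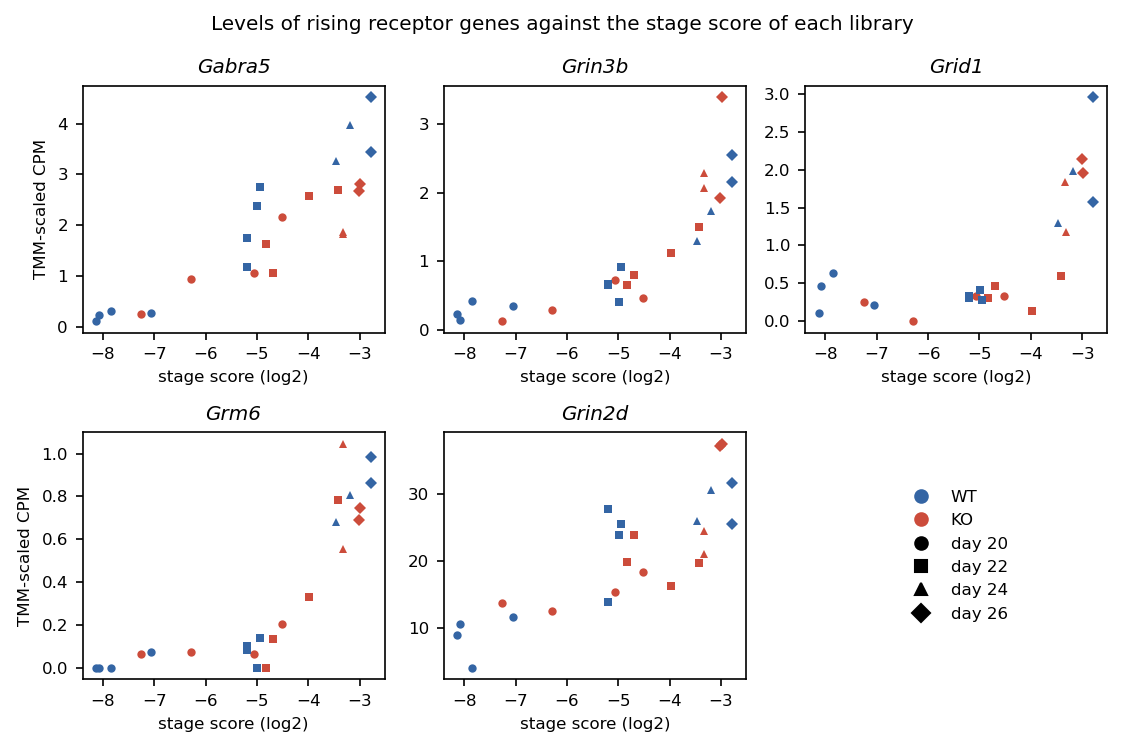
TMM-scaled CPM of 5 receptor genes that rose between days 20 and 26 in WT, against the stage score of each library (round spermatid minus pachytene markers, mean log2 CPM). *Grin3b* is higher in libraries of higher score in both genotypes; *Grid1* and *Grm6* stay under 1 CPM in every library of days 20 and 22; no test was made of these relations.

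Genes that transport, make or anchor at these synapses were followed as a list of 78, of which 66 were tested. In the KO against WT comparisons 1 was higher at day 20 (*Slc1a7*), 1 at day 22 (*Grip1*), none at day 24 or 26 in edgeR (2 and 12 at an unadjusted p under 0.05) and 2 over the mean of the days (*Lhfpl3*, *Cnih2*), and none was lower. Of all genes tested, 2.98%, 1.26%, 0.0175% and 0.0% were higher at the 4 days and 3.52% over the mean. At days 24 and 26, 898 and 1979 of all 17170 genes had an unadjusted p under 0.05 in edgeR. DESeq2 called 2, 1, 0 and 1 of the list at the 4 days and 5 over the mean. *Slc1a7*, a glutamate transporter gene, had 1 to 6 counts in the WT libraries of day 20 and 15 to 23 in KO (log2 fold change 1.95, SE 0.375, adjusted p = 0.00795). *Lhfpl3* belongs to the family of the GABA-A receptor partner *Lhfpl4*. It was higher in KO by 1.01 over the mean (SE 0.166, adjusted p = 0.00112), with 38 and 43 counts in WT at day 26 and 106 and 169 in KO. *Cnih2*, an AMPA receptor auxiliary subunit gene, was at 0.55 (SE 0.141, adjusted p = 0.0268). *Grip1*, which encodes an AMPA receptor scaffold, was at 0.90 at day 22 (SE 0.203, adjusted p = 0.0236). The calls of *Slc1a7* and *Lhfpl3* held without any single library. With the day fitted alone *Slc1a7* was at 1.94 (adjusted p = 0.127) and *Grip1* at 0.92 (0.130), neither called. Day 26 fitted alone gave calls for *Lhfpl3* (1.72, adjusted p = 0.00313) and *Cnih2* (0.86, 0.0232). It gave none for *Slc1a7* (0.43, 0.384) or *Grip1* (0.03, 0.866). Without the *Crisp1* libraries *Slc1a7* was at 1.77 (adjusted p = 0.723) and *Lhfpl3* at 0.90 (0.595), so both calls were lost there. The call of *Grip1* was lost in 4 single omissions and that of *Cnih2* in 7, with log2 fold changes of 0.61 to 1.04 and 0.49 to 0.62, the former without KO_d22_2, WT_d22_2, WT_d22_3 or WT_d22_4 and the latter without KO_d24_1 or any other library of days 24 and 26 except KO_d24_2. With the stage score as a covariate only *Lhfpl3* stayed called among these 4 (1.2, adjusted p = 0.000251), with *Slc1a7* at 1.65 (adjusted p = 0.472).

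Between days 20 and 26, 19 of the 66 tested genes of this list were higher and 11 lower in WT, and 16 were higher and 23 lower in KO. Of all genes tested, 24.4% were higher and 18.1% lower in WT, and 27.2% and 24.9% in KO. *Grip1* rose in both genotypes, by 2.49 in WT (SE 0.235, adjusted p = 9.77e-08) and by 2.36 in KO (SE 0.234, adjusted p = 3.96e-07).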

How the data were processed

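Ribosome-depleted, strand-specific RNA libraries from 24 whole testes were analysed. The authors aligned read pairs to mm10 with STAR 2.7.11b and counted them with HTSeq by strand, discarding pairs with several alignments (4.74% to 13.7% of a table, highest in WT_d20_2). The labels give testis as the source but their extraction text mentions purified spermatogenic cell fractions; the libraries were treated as whole testis, as the source and the study's design say, and held Sertoli and Leydig cell markers. The authors deposited raw counts per gene, 1 table per library. The study calls the libraries biological replicates. Its text gives fewer day 20 replicates than the labels, and all labelled libraries were used. No 2 libraries of a group agreed within sampling noise. The 5 unassigned tallies in each table were left out.

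Counts were tested with edgeR 4.0.16 in R 4.3.3 (TMM, filterByExpr at a minimum count of 10, which left 17170 genes; robust quasi-likelihood fit of 8 groups over 24 libraries; two-sided p-values adjusted by Benjamini-Hochberg over all genes tested). A gene was called at an adjusted p under 0.05. DESeq2 1.42.0, the replicate number as a block, other filters and size factors, a stage score covariate, days fitted alone and libraries left out were alternatives. The script was tested on simulated counts. The floor was 3 counts, and intervals cover counting error only.

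Named genes were those called between genotypes, the 10 of lowest p over the mean of the days, the 10 of highest level and up to 6 rises and 6 falls with age in WT. The members and lists were chosen with earlier results of these data known. Positions and exon lengths are from GENCODE M21, and 37 of the 52 genes matched a promoter in RefSeq. Which gene models were used for counting was not given in the sources used here. The results of some receptor genes are not reported here, and the counts over the set include them.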

Additional observations from a re-analysis of the deposited data

Results flagged for a closer look

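Within groups of 4 libraries, 80 combinations of a named gene and a group were examined for 1 library far from the others, and 6 stood out; chance marks about 1 in 20, or 4 here. *Gabra3* was at 1.88 CPM in KO_d22_1 and at 0.0601 to 0.198 in the other KO libraries of day 22. *Gabra4* was at 3.87 CPM in the same library and at 0.661 to 1.19 in the others. *Grik3* was at 2.84 CPM in WT_d20_2, the library with the most pairs of several alignments, and at 5.73 to 5.90 in the other WT libraries of day 20. *Grm7* was at 6.40 CPM in WT_d22_3 and at 4.29 to 4.51 in the others. *Grm6* was at 0.0720 CPM in WT_d20_4 against 0 in the others, which is 1 count, and at 0.203 CPM in KO_d20_4 against 0.0654 to 0.0725. Their causes were not tested.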

How the results depend on the processing

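Receptor genes called between genotypes were few enough for single settings to change the count. At day 20 none of the 3 was called with the stage score as a covariate, with the day fitted alone or without the libraries with *Crisp1* (0 each). At day 22 the count went from 2 to 1 without a filter, with the stage score and with the day alone. At day 24 it went from 1 to 0 without the *Crisp1* libraries, where 1 library per genotype is left and is assumed to vary like the other groups. At day 26 it went from 0 to 3 with the day alone (*Grik2* and *Grik5* among them) and to 1 in DESeq2 (*Grik2*). Over the mean of the days it went from 1 to 2 with RLE size factors, the replicate block and DESeq2, and in the joint test from 0 to 1 in DESeq2. For age in WT the 10 calls became 6 at a minimum count of 30 and 0 with the stage score. In KO the 16 became 2 with the stage score. Calls were also lost in both genotypes without the *Crisp1* libraries, where 1 library per genotype is left at day 26. With the stage score as a covariate the WT age changes of *Grm6* (-2.06), *Gabra5* (-0.22), *Grin3b* (-0.62) and *Grik1* (-3.14) turned negative, none called. The scores of WT days 20 and 26 did not overlap, so that fit cannot separate stage from day. The *Gabra3* call at day 22 was also lost without a filter (-2.66, adjusted p = 0.0566), with the stage score (-2.55, 0.134) and with the day alone (-2.69, 0.194).

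Leaving out 1 library at a time gave 1 to 4 calls at day 20, 1 to 3 at day 22, 0 to 1 at day 24, 0 to 1 at day 26, 1 to 4 over the mean, 0 to 1 in the joint test, 8 to 12 for age in WT and 6 to 16 in KO. Shared replicate numbers were not taken to pair the samples, since not every pair correlated above 0.1: same-numbered deviations correlated between 0.07 and 0.41 for day 20, between -0.46 and -0.03 for day 22, and with 0.39 and 0.42 for days 24 and 26, and 6 of 8 libraries at day 20 and 0 of 8 at day 22 correlated best with their own number. *Crisp1* libraries shared a number across genotypes at days 20, 24 and 26. With the replicate block, the calls were 4, 2, 1 and 0 at days 20 to 26, 8 for age in WT and 12 in KO. With basic GENCODE exon lengths *Grik5* was at 16.4 CPM per kb, and 9 of the 10 highest genes were shared. The 17 untested genes were limited by depth.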
